A study of Mus musculus with 9 samples.

Results

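Cdkn2a and 8 other genes that are used to follow cellular senescence were examined in RNA of the aging mouse lacrimal gland, the gland that secretes the watery part of the tear film. The 9 genes were taken by name from the 54232 genes of the deposited count table: the CDK inhibitors Cdkn2a, Cdkn2b, Cdkn2c and Cdkn1a, the tumour suppressors Trp53 and Rb1, the nuclear lamina gene Lmnb1, the lysosomal β-galactosidase gene Glb1 and the stress cytokine gene Gdf15. All glands came from C57BL/6J female mice fed ad libitum on a light and dark cycle of 12 h each, and the ages were 2, 12 and 24 months, with 3 libraries at each. The titles of the youngest libraries give 8 weeks, and the series title places the study in the lymphoid structures that form in the old gland. No label says whether a library was 1 mouse or a pool, so each p-value below sets a difference against the scatter of these 9 libraries alone, and that scatter may be technical.

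Cellular senescence is a lasting arrest of division. It is held in large part by 2 pathways: the INK4 inhibitors, p16Ink4a among them, keep CDK4 and CDK6 from inactivating the retinoblastoma protein, and p53 induces p21, an inhibitor of several cyclin-dependent kinases. Senescent cells are also known for loss of lamin B1, for lysosomal β-galactosidase activity and for secreted cytokines, chemokines and proteases. Cdkn2a encodes both p16Ink4a and p19Arf, an inhibitor of the p53 ubiquitin ligase MDM2, from separate first exons.

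The libraries held 40516863 to 42573877 counts, and levels are given in CPM, counts relative to the library total after TMM scaling, where 1 count was worth 0.0201 to 0.0294 CPM. Genes with enough counts for a test, at least about 10 in 3 libraries, numbered 14944 and included 8 of the 9; Cdkn2a fell below that limit. The lacrimal acinar markers (Ltf, Aqp5, Slc12a2, Bhlha15, Obp1a, Pip and Pigr) summed to 187000 to 249000 CPM at 2 months, 169000 to 190000 at 12 months and 165000 to 198000 at 24 months, so every library carried the labelled tissue. Salivary gland transcripts (6 genes, with Bpifa2 and Amy1) were high in 2-month replicate 3 (sum 850 CPM), 12-month replicate 2 (379) and 24-month replicate 2 (252). Of the other 6 libraries, 2-month replicate 2 had 71.6 CPM and the rest 0.573 to 7.2. The fits without the 3 salivary libraries still hold 2-month replicate 2. Skeletal muscle transcripts (5 genes, with Acta1) summed to 26.2 and 50.1 CPM in 12-month replicates 1 and 3 and to at most 1.1 elsewhere. Of the genes called below among the members and the lists, 20 for 12 against 2 months, 35 for 24 against 2 months and 11 for 24 against 12 months, 3, 11 and 4 stayed called in edgeR's test without the 3 salivary libraries, which leaves 2 libraries at each age. Without the 2 muscle libraries, which leaves 1 library at 12 months that is assumed to vary like the others, 9, 32 and 0 did. In such bulk RNA, fewer cells of a type and less RNA per cell cannot be told apart.

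Cdkn2a RNA was close to undetected at 2 and 12 months and present in all 3 libraries at 24 months. The gene (ENSMUSG00000044303) lies on the minus strand of chromosome 4, 89274471 to 89294653 in GRCm38. Replicates 1, 2 and 3 held 0, 0 and 1 counts in the 2-month glands, 0, 1 and 0 in the 12-month glands, and 4, 28 and 64 in the 24-month glands. Every 24-month library was above all 6 younger ones, and within the oldest age the lowest and highest libraries differed widely. In scaled units the mean was 0.00943 ± 0.0163 CPM (SD, n = 3 here and below) at 2 months, 0.00681 ± 0.0118 at 12 months and 0.678 ± 0.593 at 24 months, where the single libraries had 0.105, 0.642 and 1.29 CPM.

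The group sums of Cdkn2a were 96 counts at 24 months (95% exact Poisson interval 77.8 to 117) and 1 count at each younger age (0.0253 to 5.57); these intervals cover counting error only. The ratio of scaled levels was 80 for 24 over 2 months (95% counting interval 14 to 3190) and 100 for 24 over 12 months (17.6 to 4000). For 12 over 2 months it was 0.798 (0.0102 to 62.7), so no difference between these ages was detectable at this depth. The slope on age was 0.0312 CPM per month, and p was 0.00952 by exact permutation of the 9 libraries over the ages, two-sided. Without 2-month replicate 1 or without 2-month replicate 2 the exact p was 0.0518, and without the 3 libraries with salivary transcripts it was 0.0667 over 90 arrangements. Leaving out 24-month replicate 3 brought the slope to 0.0159 CPM per month (exact permutation p = 0.0286).

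When edgeR's quasi-likelihood test was fitted with no count filter, over 31366 genes, Cdkn2a was called higher at 24 months than at 2 months (log2 fold change 5.83, adjusted p = 1.98e-06) and than at 12 months (6.08, adjusted p = 6.96e-07). In that fit 6.4% of genes were called higher for 24 against 2 months and 2.79% for 24 against 12 months. For 12 against 2 months the log2 fold change was -0.25 (adjusted p = 1).

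The annotation gives Cdkn2a 2 transcripts with separate starts, and counts per gene do not separate p16Ink4a from p19Arf. The bases upstream of each start are shown because the measured RNA could come from either. They are RefSeq sequence of GRCm38.p6, minus strand, 250 bases before the start at chr4:89294620-89294869 and at chr4:89282193-89282442. The first lies at the more distal exon, the one known as that of p19Arf, and the second at the exon of p16Ink4a.
Cdkn2a distal start: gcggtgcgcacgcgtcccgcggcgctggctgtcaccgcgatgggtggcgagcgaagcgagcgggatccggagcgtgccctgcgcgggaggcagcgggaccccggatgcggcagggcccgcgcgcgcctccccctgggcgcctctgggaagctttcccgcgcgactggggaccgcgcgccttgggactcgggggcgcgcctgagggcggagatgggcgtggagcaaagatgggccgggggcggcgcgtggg
Cdkn2a proximal start: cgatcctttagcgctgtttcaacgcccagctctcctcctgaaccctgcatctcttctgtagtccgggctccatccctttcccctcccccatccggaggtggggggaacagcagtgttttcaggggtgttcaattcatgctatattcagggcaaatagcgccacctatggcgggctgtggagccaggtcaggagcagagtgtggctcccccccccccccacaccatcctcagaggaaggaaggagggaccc
In the 300-base windows that run 50 bases past each start, the distal one held 45 CpG dinucleotides at 77% G and C, and the proximal one 12 at 60.3%. The GC box GGGCGG, searched on both strands, occurred 3 times in the distal window and once in the proximal one, and 35.6% of 32817 promoter windows of the same length held at least 1.

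**Figure D1:**
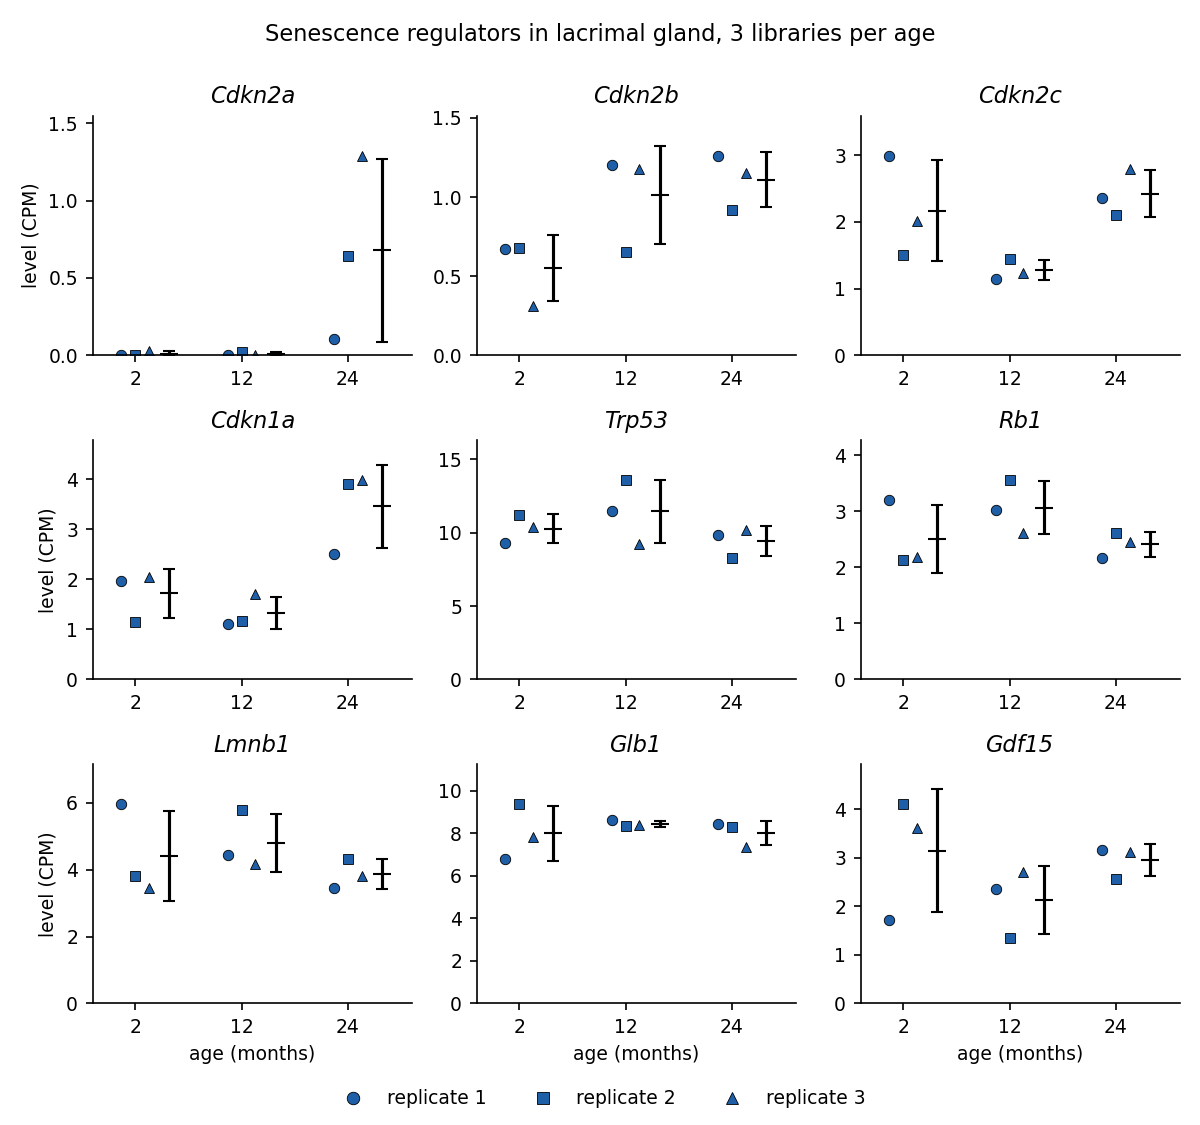
Levels of the 9 genes in CPM (vertical axes, each from 0) by age in months (horizontal axes). Points are single libraries, with the replicate number as the symbol, and the bar beside them is mean and SD of 3 libraries. Cdkn2a lies at or near 0 in the 6 younger libraries and reaches 1.29 CPM at 24 months, and Cdkn1a at 24 months lies above every younger library.

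The 3 genes most like Cdkn2a over the 9 libraries, by Pearson correlation of log2(CPM + 0.5) among 9929 genes averaging 2 CPM or more, were Ccl9 (r = 0.972), F5 (r = 0.971) and Osr2 (r = 0.961). These are descriptions over 9 points that share age and library. Ccl9, a chemokine made by myeloid cells, had 59.6 to 82.7 CPM at 2 months, 64.1 to 82.8 at 12 months, with 133, 301 and 470 at 24 months. F5, coagulation factor V, had 36.9 to 42.5, 41.8 to 44.5, and 42.7, 62.6 and 89.8 CPM at these ages. Osr2, a zinc finger transcription factor, had 16.8, 19.1 and 30.4 CPM at 24 months and at most 14.4 before. Cdkn2a varied almost only among the oldest glands, so genes picked by this correlation largely had to share its order of replicates 1, 2 and 3 there. That order is no separate observation.

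**Figure D2:**
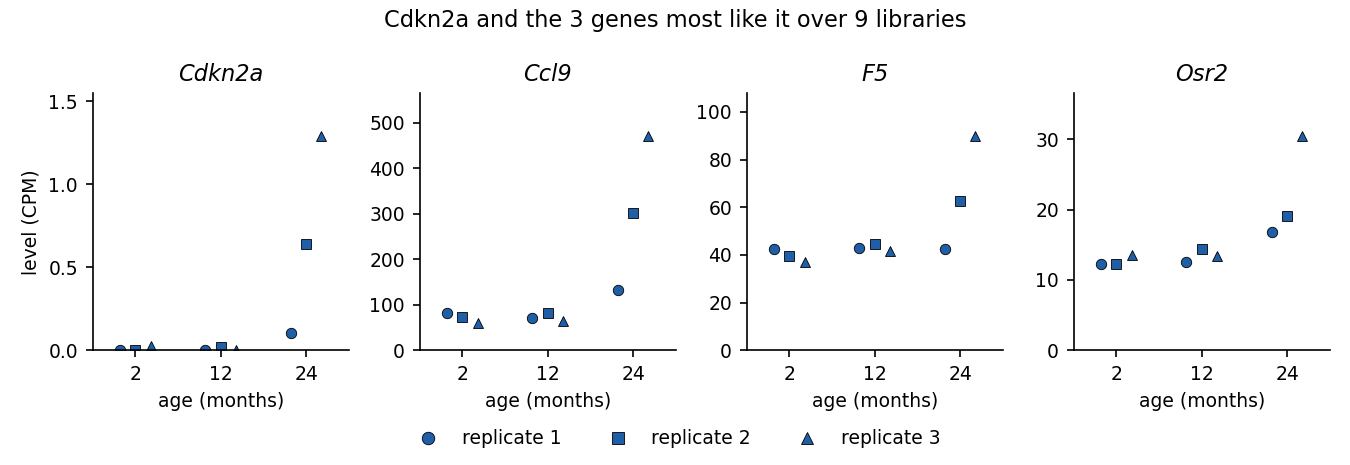
Cdkn2a beside Ccl9, F5 and Osr2, in CPM (vertical axes, each from 0) by age in months. Points are the 9 libraries, with the replicate number as the symbol. In each panel 24-month replicate 3 is the highest library, at 1.29, 470, 89.8 and 30.4 CPM. The 3 genes were picked for their correlation with Cdkn2a, so this likeness follows from the choice.

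Markers of several cell types moved with age as well. Of all tested genes 9.82% were called higher for 24 against 2 months and 5.41% for 12 against 2 months. The macrophage markers (Adgre1, Cd68, Csf1r, C1qa, C1qb, Lyz2 and Mrc1) were all called higher for 24 against 2 months, 7 of 7, and summed to 54.5 to 83.1 CPM at 2 months, 170 to 228 at 12 months, with 227, 259 and 323 at 24 months. The fibroblast markers, 3 of 5 called higher, summed to 69.3 to 121, 77 to 89.2, and 124, 117 and 183 CPM. The mast cell markers, 4 of 4 called higher, summed to 17.4 to 21.4, 16.6 to 20.9, and 33.5, 33.6 and 38.3 CPM. B cell markers, 6 of 6 called higher for both older ages against 2 months, summed to 0.399 to 0.594, 15.9 to 140 and 14.4 to 25.2 CPM. The highest B cell sum, 140 CPM, was that of 12-month replicate 2. Of 4 neutrophil genes, 3 had 0 counts in every 2-month library, S100a8 and S100a9 among them. Only 1 of the 4 was tested, and it was called higher for 24 against 2 months. Their sums were 0.0294 to 0.698 CPM at 2 months, 0.678 to 1.23 at 12 months and 0.969 to 2.56 at 24 months. Markers of T cells (6 of 6), plasma cells (4 of 5) and adipocytes (5 of 5) were also called higher for 24 against 2 months. So were those of red blood cells, 4 of 4, with sums of 39 to 49.4, 45 to 79.7, and 171, 66.8 and 98.6 CPM. Markers of acini, ducts, myoepithelium, endothelium, skeletal muscle and salivary gland had 0 called higher in that comparison, and 1 acinar marker was called lower. The B cell, T cell and adipocyte genes summed to at most 0.594, 1.4 and 1.17 CPM at 2 months, and 10 counts were worth 0.201 to 0.294 CPM over the libraries. Genes this low at 2 months can pass the count limit through the older libraries alone. Their shares called higher are therefore no fair match for the 9.82% and 5.41% of all tested genes. The part of any cell type above in the level of Cdkn2a was not tested.

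Cdkn2b encodes p15Ink4b, an inhibitor of CDK4 and CDK6, and lies next to Cdkn2a (ENSMUSG00000073802, chromosome 4, 89306299 to 89311039). Its level was 0.673, 0.675 and 0.311 CPM at 2 months, 1.2, 0.654 and 1.18 at 12 months, with 1.26, 0.917 and 1.15 at 24 months. The 24-month libraries lay above all of the 2-month ones, while the ranges at 12 and 24 months overlapped. Its log2 fold change was 0.99 ± 0.40 (SE here and below) for 24 against 2 months, which missed the threshold (edgeR quasi-likelihood adjusted p = 0.111). It was 0.86 ± 0.40 for 12 against 2 months (edgeR adjusted p = 0.223) and 0.13 ± 0.38 for 24 against 12 months (edgeR adjusted p = 0.893). Unlike the counts of Cdkn2a, those of Cdkn2b were above 10 in every library, 11 to 27 at 2 months, 32 to 53 at 12 months and 40 to 57 at 24 months. Scaling by library totals alone, which moved the median gene by 0.31, gave 1.29 for 24 against 2 months (edgeR adjusted p = 0.0483).

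The other neighbours of the locus were not called either. Mtap, an enzyme of methionine salvage, averaged 12.1 ± 0.958 CPM at 2 months, 11.8 ± 1.17 at 12 months and 11.5 ± 0.892 at 24 months, with a log2 fold change of -0.08 (95% interval -0.33 to 0.17) for 24 against 2 months. Dmrta1, the gene on the other side, was tested too and was called by none of edgeR, DESeq2 and limma voom in any comparison, with an unadjusted p under 0.05 in edgeR's test for both older ages against 2 months. With library totals alone, edgeR called 1 of these 2 neighbours higher in each comparison with 2 months.

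Cdkn2c, which encodes p18Ink4c (ENSMUSG00000028551, chromosome 4, 109660876 to 109667189), was lowest at 12 months. Its level was 2.99, 1.5 and 2.01 CPM at 2 months, 1.15, 1.45 and 1.23 at 12 months, with 2.36, 2.11 and 2.8 at 24 months. The 12-month range did not overlap with either of the others. Even so, edgeR's test called neither the difference for 12 against 2 months (log2 fold change -0.76 ± 0.29, adjusted p = 0.131) nor that for 24 against 12 months (0.92 ± 0.29, adjusted p = 0.0945). DESeq2 called the second (0.93, adjusted p = 0.0281). For 24 against 2 months the log2 fold change was 0.16, with a 95% interval of -0.45 to 0.77.

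Cdkn1a, which encodes p21, rose at 24 months and was the member called in edgeR's tests (ENSMUSG00000023067, chromosome 17 plus strand, 29090976 to 29100727). Its level was 1.97, 1.15 and 2.04 CPM at 2 months, 1.11, 1.17 and 1.7 at 12 months, with 2.51, 3.9 and 3.99 at 24 months. The 24-month libraries were all above the 6 younger ones, and the ranges at 2 and 12 months overlapped. The mean was 3.47 ± 0.825 CPM at 24 months against 1.72 ± 0.497 at 2 months, a fold change of 2.02 (log2 1.01 ± 0.30, edgeR adjusted p = 0.0364). Against 1.33 ± 0.329 CPM at 12 months the fold change was 2.62 (log2 1.39 ± 0.30, edgeR adjusted p = 0.0224). For 12 against 2 months the log2 fold change was -0.38 ± 0.31 (edgeR adjusted p = 0.511). Over the 3 ages together edgeR's adjusted p was 0.0152.

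The call of Cdkn1a rests on few libraries. For 24 against 2 months edgeR's adjusted p ranged up to 0.128 when single libraries were left out, and the call did not hold without 2-month replicate 1, 2 or 3 or 24-month replicate 2 or 3. Against 12 months it reached up to 0.088, and the call was lost without 12-month replicate 1 or 2 or 24-month replicate 2 or 3. Without the 3 libraries with salivary transcripts the log2 fold changes were 1.07 (edgeR adjusted p = 0.178) and 1.22 (edgeR adjusted p = 0.262). Without the 2 libraries with muscle transcripts the call against 12 months was lost too (log2 fold change 1.59, edgeR adjusted p = 0.19). The direction was the same in each of these fits. Of the 50-base stretches of its exons 10.6% also occur in other annotated genes, where reads could be split or dropped, against 0% for Cdkn2a, Cdkn2b, Cdkn2c, Lmnb1 and Gdf15.

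The upstream bases of Cdkn1a are shown because p53 is its textbook activator, and a p53 response element was searched there. RefSeq gives 2 start windows in GRCm38.p6, plus strand, with 250 bases before the start at chr17:29090729-29090978 and at chr17:29093519-29093768. Capitals mark a 20-base match to the p53 response element with 1 letter off.
Cdkn1a upstream start: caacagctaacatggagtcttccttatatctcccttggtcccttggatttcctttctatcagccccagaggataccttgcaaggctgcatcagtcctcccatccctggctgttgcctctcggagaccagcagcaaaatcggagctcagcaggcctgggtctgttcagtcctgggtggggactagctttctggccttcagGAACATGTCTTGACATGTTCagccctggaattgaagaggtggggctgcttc
Cdkn1a downstream start: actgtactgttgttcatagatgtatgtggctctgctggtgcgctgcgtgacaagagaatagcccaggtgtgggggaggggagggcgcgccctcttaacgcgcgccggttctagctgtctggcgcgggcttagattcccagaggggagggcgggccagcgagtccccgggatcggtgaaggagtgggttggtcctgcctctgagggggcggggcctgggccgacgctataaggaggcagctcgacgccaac
The match ended 31 bases before the first start, and the second window held none. Searched on both strands with at most 1 letter off, a tolerance set after the windows were seen, the element occurred in 29 of 32817 promoter windows (0.0884%). Among the members, 7 of 9 had windows, 11 in all, and the other windows held no match. A match is a description of letters and no measure of binding.

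The 3 genes most like Cdkn1a over the 9 libraries, among 9928, were Ifnlr1 (r = 0.967), Abcd3 (r = 0.953) and Cdh1 (r = 0.945). Ifnlr1, a receptor chain for type III interferons, had 4.55 to 5.28 CPM at 2 months, 3.57 to 4.59 at 12 months and 7.04 to 9 at 24 months. Cdh1, the epithelial adhesion molecule E-cadherin, had 55.5 to 69.6, 56.2 to 63.4 and 78.4 to 93.4 CPM. Abcd3, a peroxisomal transporter, varied within 38 to 49.5 CPM over all libraries.

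Trp53, which encodes p53 (ENSMUSG00000059552, chromosome 11, 69580359 to 69591873), averaged 10.3 ± 0.992 CPM at 2 months, 11.4 ± 2.18 at 12 months and 9.45 ± 1.04 at 24 months. Its single libraries were 9.27, 11.2 and 10.4 CPM at 2 months, 11.5, 13.6 and 9.25 at 12 months, with 9.82, 8.27 and 10.2 at 24 months. All 3 ranges overlapped. The log2 fold change was -0.12 (95% interval -0.45 to 0.20, edgeR adjusted p = 0.623) for 24 against 2 months, and 0.15 (adjusted p = 0.607) for 12 against 2 months and -0.28 (adjusted p = 0.352) for 24 against 12 months by the same test. The protein is known to be controlled largely after transcription, which these counts do not measure.

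Rb1, the retinoblastoma gene (ENSMUSG00000022105, chromosome 14, 73183673 to 73325822), had 3.21, 2.14 and 2.18 CPM at 2 months, 3.03, 3.56 and 2.61 at 12 months, with 2.17, 2.61 and 2.46 at 24 months. To 3 digits 24-month replicate 2 and 12-month replicate 3 had the same value, and the 24-month range ended just below the 12-month one. Its log2 fold change was -0.34 (edgeR adjusted p = 0.46) for 24 against 12 months and -0.06 (95% interval -0.56 to 0.44, edgeR adjusted p = 0.896) for 24 against 2 months. Exons of Rcbtb2 and Lpar6 on the opposite strand share 8.11% and 6.78% of its exon bases. The strand setting of the counting is not given in the sources used here, so reads there cannot be told apart.

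Lmnb1, which encodes lamin B1, had 5.96, 3.82 and 3.45 CPM at 2 months, 4.43, 5.78 and 4.16 at 12 months, with 3.46, 4.33 and 3.81 at 24 months. The ranges overlapped at all ages, with 2-month replicate 1 the highest library. The log2 fold change for 24 against 2 months was -0.19, with a 95% interval of -0.68 to 0.29 (edgeR adjusted p = 0.608), and without 2-month replicate 1 it was 0.09.

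Glb1, which encodes the enzyme behind senescence-associated β-galactosidase staining (ENSMUSG00000045594, chromosome 9, 114401076 to 114474898), averaged 7.99 ± 1.29 CPM at 2 months, 8.44 ± 0.142 at 12 months and 8.02 ± 0.564 at 24 months. The 12- and 24-month libraries, 7.37 to 8.61 CPM, lay within the range of the 2-month ones, 6.8 to 9.37. Its log2 fold change for 24 against 2 months was 0.00, the 95% interval of -0.29 to 0.30 being the narrowest of the 8 members tested (edgeR adjusted p = 0.986). Tmppe on the same strand shares 5.49% of its exon bases.

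Gdf15, a TGF-β family cytokine induced by cell stress (ENSMUSG00000038508, chromosome 8, 70629393 to 70632456), had 1.72, 4.11 and 3.62 CPM at 2 months, 2.35, 1.35 and 2.7 at 12 months, with 3.17, 2.57 and 3.12 at 24 months. The 24-month values lay inside the 2-month range, and 12-month replicate 2 was the lowest of the 9 libraries. Its log2 fold change was -0.56 for 12 against 2 months (edgeR adjusted p = 0.347), -0.09 for 24 against 2 months (95% interval -0.80 to 0.62, edgeR adjusted p = 0.888) and 0.47 for 24 against 12 months (edgeR adjusted p = 0.488).

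**Figure D3:**
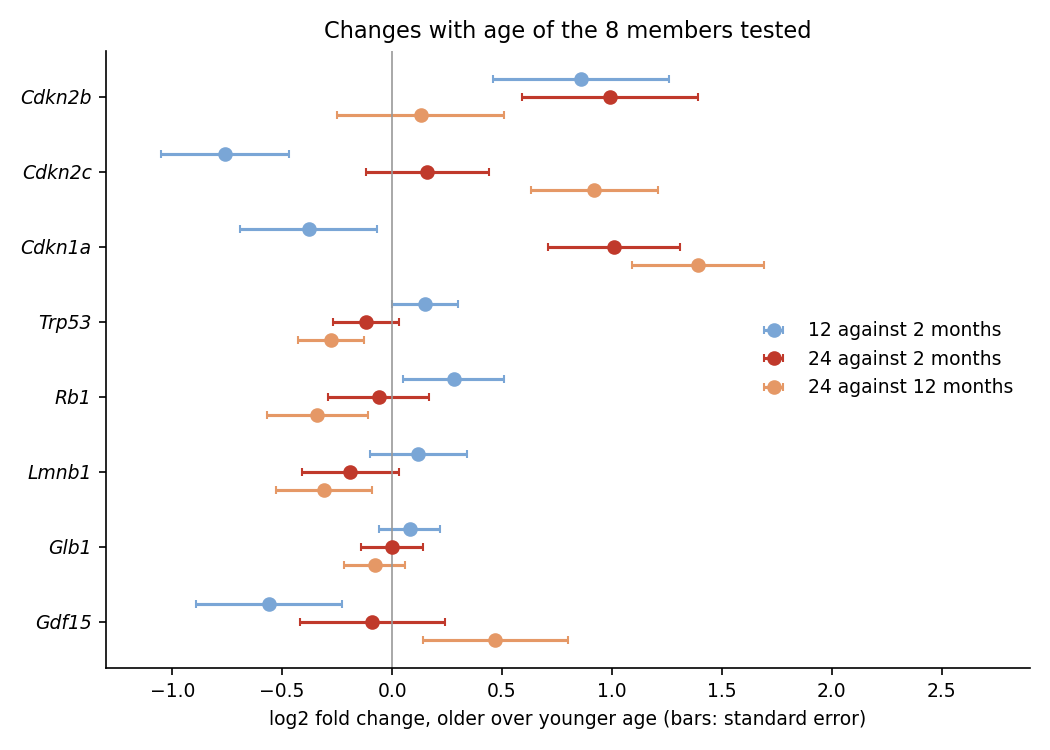
Log2 fold changes of the 8 tested members (horizontal axis, older over younger age), with bars for the standard error, in the 3 comparisons of ages. Cdkn1a at 1.01 and 1.39 holds the only called changes, those against 2 and 12 months at 24 months, and Glb1 lies nearest 0. Cdkn2a is not drawn because it fell below the count limit.

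Of the 8 tested members, edgeR's test at an adjusted p under 0.05 called 0 for 12 against 2 months, where 7.93% of all tested genes were called; 1 of the 8, Cdkn2c, had an unadjusted p under 0.05, and DESeq2 and limma voom called 0. It called 1 higher for 24 against 2 months, where 9.82% of all tested genes were called higher, 7.56% lower and 17.4% in either direction. It called 1 higher for 24 against 12 months, where the background was 2.79% higher and 4.39% in either direction. The median log2 fold change of the members was 0.10, -0.03 and 0.03 in these comparisons, beside 0.01, 0.01 and -0.02 for all tested genes. Ranges without overlap were seen for Cdkn2b and Cdkn1a, both higher, for 24 against 2 months (background 18.4%), for Cdkn2c and Cdkn1a, both higher, and Rb1, lower, for 24 against 12 months (background 12.1% higher and 12.6% lower), and for Cdkn2c, lower, for 12 against 2 months (background 12.4%). The comparisons share libraries, so their values are not independent.

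Per kilobase of exon, Glb1 and Trp53 led at every age. At 24 months the order of mean levels in CPM per kb was Glb1 (2.66), Trp53 (2.34), Gdf15 (1.59), Lmnb1 (1.3), Cdkn1a (0.975), Cdkn2c (0.901), Cdkn2b (0.796), Cdkn2a (0.579) and Rb1 (0.401). The ranges of the 3 libraries separated Trp53 from Gdf15 and Lmnb1 from Cdkn1a, and all other neighbours in that order overlapped. At 2 and 12 months Cdkn2a was last, with 0.00805 and 0.00581 CPM per kb, and its range lay below that of the next gene, while at 24 months it overlapped both Cdkn2b and Rb1.

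Among the partners of the CDK inhibitors, Cdk6, a kinase that p16Ink4a binds, fell with age. Its level was 6.9, 7.13 and 5.55 CPM at 2 months, 3.3, 3.5 and 3.82 at 12 months, with 2.51, 1.97 and 2.17 at 24 months. The 3 ranges stood apart in that order. The log2 fold change was -1.56 ± 0.18 for 24 against 2 months (edgeR adjusted p = 0.000287, and at most 0.00286 without any single library) and -0.88 ± 0.17 for 12 against 2 months (edgeR adjusted p = 0.00929, and 0.0512 without 2-month replicate 2). The second call was also lost without the salivary libraries (edgeR adjusted p = 0.0864) and without the muscle libraries (0.0956). For 24 against 12 months it was -0.67 ± 0.18 (edgeR adjusted p = 0.0525).

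In the list of 11 CDK inhibitors, cyclins and CDKs of G1, Cdk6 was the 1 gene called in each comparison with 2 months. The background was 2.52% lower at 12 months and 7.56% lower at 24 months. The median log2 fold changes were -0.12, -0.09 and -0.07 for 12 against 2, 24 against 2 and 24 against 12 months. For 24 against 12 months 0 were called (background 4.39% in either direction). In that last comparison 2 of the 11 had an unadjusted p under 0.05 in edgeR's test, DESeq2 called 1 and limma voom 0. Cdk4, the other target of p16Ink4a, averaged 39.5 ± 4.76 CPM at 24 months and 48 ± 1.77 at 2 months (log2 fold change -0.28, edgeR adjusted p = 0.0608). Cyclin D1 (Ccnd1) averaged 18.4 ± 4.23 and 16.6 ± 4.58 CPM at these ages (0.15, edgeR adjusted p = 0.645). The inhibitors Cdkn1b (p27) and Cdkn2d (p19Ink4d) had log2 fold changes of -0.09 and -0.31 (edgeR adjusted p = 0.68 and 0.559).

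Of 12 RB family and E2F genes, 1 rose for 12 against 2 and for 24 against 2 months (background 5.41% and 9.82% higher). For 24 against 12 months edgeR called 0 (background 4.39% in either direction). There 1 had an unadjusted p under 0.05 in edgeR's test, and DESeq2 and limma voom called 0. The gene that rose was Rbl2, the pocket protein p130, which holds E2F genes silent in resting cells. Rbl2 had 9.67, 8.02 and 9.11 CPM in the 2-month glands, 13, 13.4 and 13.1 in the 12-month glands and 12.4, 12 and 11.8 in the 24-month glands. The log2 fold change was 0.43 ± 0.10 for 24 against 2 months (edgeR adjusted p = 0.0161, and 0.0667 without 2-month replicate 2) and 0.56 ± 0.10 for 12 against 2 months (edgeR adjusted p = 0.00772). Without the salivary libraries neither was called (edgeR adjusted p = 0.152 and 0.186), and without the muscle libraries the second was not (0.077). E2f1, an activator of S phase genes, had 7.3 CPM in 2-month replicate 1 and 1.95 to 4.13 in the other 8 libraries.

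Genes of DNA replication and division were called in numbers that depended on the test. Of 19 E2F targets, edgeR's test called 1 lower for 12 against 2 months (background 2.52% lower). It called 0 for 24 against 2 and 24 against 12 months (background 17.4% and 4.39% in either direction). There 2 and 1 had an unadjusted p under 0.05 in that test, and DESeq2 and limma voom called 0. The gene that fell was Tyms, thymidylate synthase, at 2.69 ± 0.215 CPM at 12 months against 4.66 ± 1 at 2 months (log2 fold change -0.80 ± 0.20, edgeR adjusted p = 0.0291). That call was lost without 2-month replicate 1 or 2 or 12-month replicate 1 or 2. In the same comparison DESeq2 called 2 of the 19 lower, limma voom 0, edgeR with no count filter 6 and edgeR with library totals 0. The list's median log2 fold change was -0.51 for 12 against 2 months and -0.32 for 24 against 2 months, but 0.22 and 0.28 without 2-month replicate 1, so its sign rested on that library. Of 12 cell division genes Ccnb1 (cyclin B1) and Plk1 (a mitotic kinase) fell for 12 against 2 months (-1.44 ± 0.39 and -1.53 ± 0.40, edgeR adjusted p = 0.0398 and 0.0356). Both calls were lost without 2-month replicate 1 or 2 or 12-month replicate 1 or 3, that of Ccnb1 also without 12-month replicate 2 or 24-month replicate 2 and that of Plk1 without 2-month replicate 3. DESeq2 and edgeR with no count filter each called 6 of the 12 lower in that comparison, limma voom 1, and edgeR with library totals 0. For 24 against 2 months edgeR and DESeq2 called 0 of the 12 and limma voom 1, with 1 at an unadjusted p under 0.05. For 24 against 12 months edgeR, DESeq2 and limma voom called 0, with 2 at an unadjusted p under 0.05. Mki67, a proliferation marker, had 10.7 CPM in 2-month replicate 1 and 2.84 to 6.51 in the others.

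Of 24 p53 target genes other than Cdkn1a, 3 rose and 0 fell for 24 against 2 months (background 9.82% higher), with a median log2 fold change of 0.07, and with library totals alone 6 were called higher. Btg2, an antiproliferative factor, reached 26.7 ± 1.86 CPM at 24 months against 18.5 ± 2.62 at 2 months (log2 fold change 0.53 ± 0.13, edgeR adjusted p = 0.0198). Gadd45a, a DNA damage response gene, reached 4.75 ± 1.2 against 2.36 ± 0.865 CPM (1.0 ± 0.28, edgeR adjusted p = 0.0287), and Trp53inp1, a p53 partner in stress, 18.6 ± 3.73 against 10.3 ± 2.88 CPM (0.84 ± 0.23, edgeR adjusted p = 0.0251). Without 2-month replicate 3 or without 24-month replicate 1, 1 gene of the list was called higher, and without the 3 libraries with salivary transcripts 0 were. Without 2-month replicate 2 also 1 was called higher, but it was none of these 3 genes. The Btg2 call did not hold without 2-month replicate 2 or 3 or 24-month replicate 1, that of Gadd45a without replicate 1 or 2 of either age, and that of Trp53inp1 without replicate 2 or 3 of either age. Btg2 also rose, alone of the list, for 12 against 2 months (0.59 ± 0.13, edgeR adjusted p = 0.0198, background 5.41% higher). That call was lost without 2-month replicate 2 or 3 or 12-month replicate 2 or 3. For 24 against 12 months Sesn2, a stress-induced inhibitor of mTORC1, was the 1 gene called (background 2.79% higher). It had 11, 8.27 and 10.2 against 5.71, 5.38 and 4.98 CPM (0.88 ± 0.15, edgeR adjusted p = 0.00801, and at most 0.0327 without any single library). It was lost without the salivary libraries (edgeR adjusted p = 0.0622) and without the muscle libraries (0.173). A promoter match to the p53 element was found for 1 of the 18 targets with a window, Ccng1.

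Mdm2, both a target and the main inhibitor of p53, averaged 11 ± 0.646 CPM at 24 months and 11.4 ± 2.72 at 2 months (log2 fold change -0.05, 95% interval -0.43 to 0.32, edgeR adjusted p = 0.872). Eda2r, a p53-induced receptor, averaged 1.39 ± 0.599 and 2.05 ± 0.688 CPM at these ages (-0.55, edgeR adjusted p = 0.392). Of the 8 tested p53 regulators edgeR and limma voom called 0 in any comparison and DESeq2 1, for 24 against 12 months. In edgeR's tests of 12 against 2, 24 against 2 and 24 against 12 months 1, 0 and 3 had an unadjusted p under 0.05. Of all tested genes edgeR called 7.93%, 17.4% and 4.39% in these comparisons.

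Of 18 Polycomb proteins, ETS factors and other known regulators of the Ink4 and Arf locus, 2 fell and 0 rose for 24 against 2 months. The background was 7.56% lower and 9.82% higher. With library totals alone 0 were called lower and 2 higher. Kdm6b, a demethylase that removes the Polycomb mark and 1 of the 2 that fell, averaged 17 ± 0.658 CPM at 24 months against 21.7 ± 1.31 at 2 months (log2 fold change -0.35 ± 0.09, edgeR adjusted p = 0.0191). The Kdm6b call did not hold without 2-month replicate 2 or 3 or 24-month replicate 1 or 3.

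At 12 against 2 months Ets1 and Cbx7 rose and Kdm6b fell (background 5.41% higher and 2.52% lower). Ets1, a transcription factor abundant in lymphocytes, had 12.8, 20.5 and 4.64 CPM at 12 months against 2.37, 2.2 and 2.58 at 2 months (log2 fold change 2.41 ± 0.41, edgeR adjusted p = 0.00493, and 0.0934 without the salivary libraries). Its 12-month libraries ran in the order of their T cell marker sums, 19.7, 24.3 and 5.82 CPM, against 0.763 to 1.4 at 2 months. The B cell marker sums, 91.5, 140 and 15.9 CPM, ran in the same order, against 0.399 to 0.594 at 2 months. The part of either cell type was not tested. The Cbx7 call (0.54 ± 0.15, edgeR adjusted p = 0.0399) was lost without any 1 of 6 libraries, those at 2 months, 12-month replicates 1 and 2 and 24-month replicate 2. The Kdm6b call (-0.35 ± 0.09, edgeR adjusted p = 0.0321) was lost without 2-month replicate 2 or 3 or any 12-month library. Ezh2, the methyltransferase of Polycomb complex 2, and Bmi1, a core subunit of complex 1, had log2 fold changes of -0.59 (95% interval -1.60 to 0.42, edgeR adjusted p = 0.429) and 0.00 (-0.28 to 0.28, edgeR adjusted p = 0.995) for 24 against 2 months.

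Besides Lmnb1, 13 genes of the nuclear lamina and envelope were followed. For 24 against 2 months 2 rose and 1 fell (background 9.82% higher and 7.56% lower), but 3 rose and 0 fell with library totals alone. Banf1, a DNA-bridging protein of the envelope, had 18.7, 18.6 and 17.3 CPM at 24 months against 23.7, 29.3 and 27.2 at 2 months (log2 fold change -0.56 ± 0.10, edgeR adjusted p = 0.00329, at most 0.0177 without any single library, and 0.07 without the salivary libraries). Sun2, which ties the lamina to the cytoskeleton, and Zmpste24, the protease that matures prelamin A, rose by 0.46 ± 0.12 and 0.32 ± 0.09 (edgeR adjusted p = 0.0231 and 0.0369). Both calls were lost without any single 2-month library or 24-month replicate 3, and that of Zmpste24 also without 24-month replicate 1. Banf1 fell (-0.42 ± 0.10, edgeR adjusted p = 0.0218) and Sun2 rose (0.47 ± 0.12, edgeR adjusted p = 0.0327) for 12 against 2 months as well (background 2.52% lower and 5.41% higher). The first of these was lost without 2-month replicate 2 or 3 or 12-month replicate 1 or 2, and the second without any 1 of the 6 libraries compared. Between 24 and 12 months edgeR, DESeq2 and limma voom called 0 (edgeR background 4.39% in either direction), with 1 at an unadjusted p under 0.05. Lmna, which encodes lamins A and C, averaged 30.1 ± 2.3 CPM at 24 months and 35.4 ± 1.28 at 2 months (-0.23, edgeR adjusted p = 0.0825).

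The lysosomal enzymes around Glb1 included 5 that rose and 0 that fell for 24 against 2 months, of 22 tested (background 9.82% higher), with a median log2 fold change of 0.14, and 9 rose with library totals alone. Gusb, β-glucuronidase, had 112, 99.7 and 110 CPM at 24 months against 75.2, 70.8 and 70 at 2 months (log2 fold change 0.58 ± 0.09, edgeR adjusted p = 0.00198) and 67.2, 66.6 and 64.6 at 12 months (0.70 ± 0.09, edgeR adjusted p = 0.00124). Both calls held with any single library left out, and the second was lost without the muscle libraries (edgeR adjusted p = 0.0686). Gla, α-galactosidase A, averaged 3.02 ± 0.363 CPM at 24 months against 1.36 ± 0.095 at 2 months (1.15 ± 0.21, edgeR adjusted p = 0.00469). Galc and Arsa, enzymes that break down galactolipids and sulfatide, rose by 0.62 ± 0.15 and 0.90 ± 0.25 (edgeR adjusted p = 0.0187 and 0.0276). The Galc call did not hold without 2-month replicate 2 or 3 or 24-month replicate 2, nor that of Arsa without replicate 1 or 3 of either age. Without 2-month replicate 3 the list had 2 genes called higher, and without the 3 libraries with salivary transcripts it had 1, Gusb. For 12 against 2 months Gla alone rose (0.84 ± 0.21, edgeR adjusted p = 0.0309, lost without any 1 of the 6 libraries compared). That is 4.55% of the list, against a background of 5.41% higher. The partners that hold β-galactosidase in its complex, Neu1 and Ctsa, had log2 fold changes of 0.02 and 0.17 for 24 against 2 months (edgeR adjusted p = 0.913 and 0.277). Macrophages are rich in lysosomes, and the part of the rise in their markers, given above, was not tested.

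The integrated stress response, a pathway that induces Gdf15, had 1 gene higher and 3 lower of 15 tested for 24 against 2 months (median log2 fold change 0.06). The background was 9.82% higher and 7.56% lower. With library totals alone 4 were higher and 1 lower. Atf4, its central transcription factor, had 174, 211 and 183 CPM at 24 months against 239, 276 and 294 at 2 months (log2 fold change -0.51 ± 0.13, edgeR adjusted p = 0.0177). Nupr1, a stress-induced chromatin protein, averaged 409 ± 58.8 against 808 ± 195 CPM (-0.98 ± 0.19, edgeR adjusted p = 0.00587, at most 0.0277 without any single library, and 0.102 without the salivary libraries), and Phgdh, an enzyme of serine synthesis, 63.2 ± 2.17 against 88.2 ± 11.1 CPM (-0.48 ± 0.11, edgeR adjusted p = 0.0126). Trib3, a pseudokinase that restrains ATF4, rose by 1.27 ± 0.40 (edgeR adjusted p = 0.0482). The Atf4 call was lost without 2-month replicate 2 or 3 or 24-month replicate 1 or 3, the Phgdh call without 2-month replicate 2, and the Trib3 call without any 1 of 7 libraries, the exceptions being 12-month replicate 3 and 24-month replicate 1. Ddit3, which encodes CHOP, averaged 3.43 ± 0.482 and 3.82 ± 1.6 CPM (-0.15, edgeR adjusted p = 0.753). Phgdh also fell for 12 against 2 months (-0.40 ± 0.11, edgeR adjusted p = 0.0448), the 1 call of that comparison (background 2.52% lower). It was lost without 2-month replicate 1 or 2, any 12-month library or 24-month replicate 2. For 24 against 12 months Asns (asparagine synthetase) and Sesn2 rose and Nupr1 fell (0.47 ± 0.12, 0.88 ± 0.15 and -0.77 ± 0.19, edgeR adjusted p = 0.0414, 0.00801 and 0.0414). The background was 2.79% higher and 1.6% lower. The Asns and Nupr1 calls were each lost without any 12-month library or 24-month replicate 2, and without further libraries too.

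**Figure D4:**
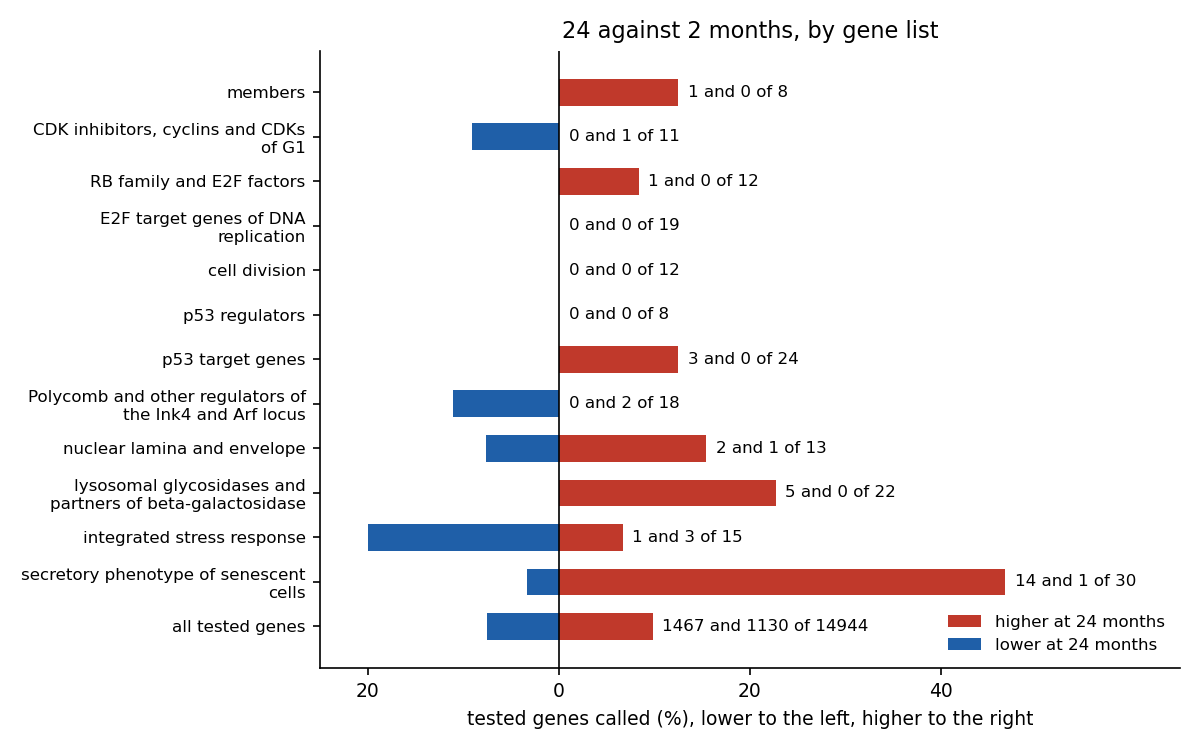
Share of tested genes called by edgeR at an adjusted p under 0.05 for 24 against 2 months, in percent (horizontal axis, lower to the left and higher to the right of 0), for each gene list, with the counts beside the bars (higher, lower, tested). The secretory list reaches 46.7% higher, against 9.82% of all tested genes in the bottom row.

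The secretory phenotype was the list with the most called genes. Of 36 genes 30 were tested, and 14 rose and 1 fell for 24 against 2 months, 46.7% higher against the background of 9.82%, with a median log2 fold change of 1.07. For 12 against 2 months 6 rose and 1 fell (background 5.41% higher and 2.52% lower), and for 24 against 12 months 5 rose and 0 fell (background 2.79% and 1.6%). Several of these genes are products of macrophages and fibroblasts in healthy tissue. The markers of both cell types moved with the list, as given above, and their part was not tested.

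Among its cytokines and chemokines, Spp1 (osteopontin) had 0.0498, 0 and 0 CPM in the 2-month glands, 1.17, 1.14 and 1.8 in the 12-month glands and 1.91, 1.9 and 1.91 in the 24-month glands. The fitted log2 fold change was 6.50 ± 0.62 for 24 against 2 months (edgeR adjusted p = 0.000118) and 6.02 ± 0.63 for 12 against 2 months (edgeR adjusted p = 0.000582), and these sizes depend on the prior count. With 2 counts in all at 2 months, Spp1 passed the count limit only through the older libraries. The ratio of scaled sums to 2 months was 105 (95% counting interval 28.6 to 868) at 24 months and 74.6 (20.4 to 621) at 12 months. Ccl8, a chemokine for monocytes and other leukocytes, had 0.0498, 0.147 and 0.679 CPM in the youngest glands, 1.6, 2.33 and 1.66 in the 12-month glands and 8.48, 3.92 and 10.2 in the oldest. It rose by 4.70 ± 0.60 for 24 against 2 months (edgeR adjusted p = 0.000611), by 2.69 ± 0.60 for 12 against 2 months (edgeR adjusted p = 0.018) and by 2.01 ± 0.48 for 24 against 12 months (edgeR adjusted p = 0.0367). The ranges of Ccl8 stood apart at all 3 ages. With its low 2-month levels, Ccl8 too passed the count limit only through the older libraries. Ccl5, a chemokine for T cells, rose by 2.34 ± 0.42 for 24 against 2 months (edgeR adjusted p = 0.0039) and by 2.16 ± 0.42 for 12 against 2 months (edgeR adjusted p = 0.00923). For 12 against 2 months the calls of Ccl8 and Ccl5 did not hold without 2-month replicate 2, nor that of Ccl8 without 12-month replicate 2, and that of Ccl5 was lost without the salivary libraries (edgeR adjusted p = 0.137). The call of Ccl8 for 24 against 12 months did not hold without any 12-month library or without 24-month replicate 1 or 3.

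Of the proteases and their inhibitors, Mmp12, macrophage elastase, rose by 2.27 ± 0.38 for 24 against 2 months and by 2.96 ± 0.38 for 12 against 2 months (edgeR adjusted p = 0.00288 and 0.00108). Mmp3, stromelysin 1, had 14.2, 13 and 20 CPM at 24 months against 6.5, 4.9 and 7.84 at 2 months (log2 fold change 1.29 ± 0.21, edgeR adjusted p = 0.0025). Timp2, an inhibitor of metalloproteinases, had 66.8, 62.4 and 85.3 against 39.2, 35.4 and 37.7 CPM (0.94 ± 0.12, edgeR adjusted p = 0.000602). The oldest glands lay above the youngest in every library of these 3 genes. Igfbp4, a carrier of insulin-like growth factors, rose by 1.18 ± 0.19 (edgeR adjusted p = 0.00224), and Igfbp2, of the same family, fell by 0.55 on the log2 scale (SE 0.14, edgeR adjusted p = 0.0202). The Igfbp2 call was lost without 2-month replicate 2 or 3 or 24-month replicate 1. Leaving out any single library kept the calls of Spp1, Ccl8, Mmp12, Mmp3, Timp2, Igfbp4 and Ccl5 for 24 against 2 months.

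Il6, a cytokine of the list, was scarce. It had 0 counts at 2 months, which allows up to 0.0274 CPM, at most 0.0818 CPM at 12 months, with 0.0786, 0 and 0 at 24 months. It was below the count limit, as were Ccl2, Ccl7, Cxcl2 and Mmp13. With 8 genes called higher without 2-month replicate 2 and 9 without 24-month replicate 3, the count for 24 against 2 months rested in part on these libraries, and it was 10 without the 3 libraries with salivary transcripts. The 6 genes higher for 12 against 2 months became 2 without 2-month replicate 2 and 3 without 12-month replicate 2. The 5 higher for 24 against 12 months became 0 without 12-month replicate 1, 2 without 12-month replicate 2, 3 without 12-month replicate 3 or 24-month replicate 1 and 1 without 24-month replicate 3. They also became 0 without the 2 libraries with muscle transcripts and with scaling by library totals.

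Without the 3 libraries with salivary transcripts, the 11 genes that stayed called for 24 against 2 months were Cdk6, Gusb and 9 genes of the secretory list (Spp1, Ccl5, Ccl8, Mmp2, Mmp3, Mmp12, Timp2, Igfbp4 and Igfbp5); the tenth gene of that list called higher in this fit had not been called before. The 3 for 12 against 2 months were Spp1, Ccl8 and Mmp12, and the 4 for 24 against 12 months were Gusb, Ccl8, Mmp2 and Mmp3. Without the muscle libraries Igfbp5, Trib3 and Zmpste24 lost their calls for 24 against 2 months.

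**Figure D5:**
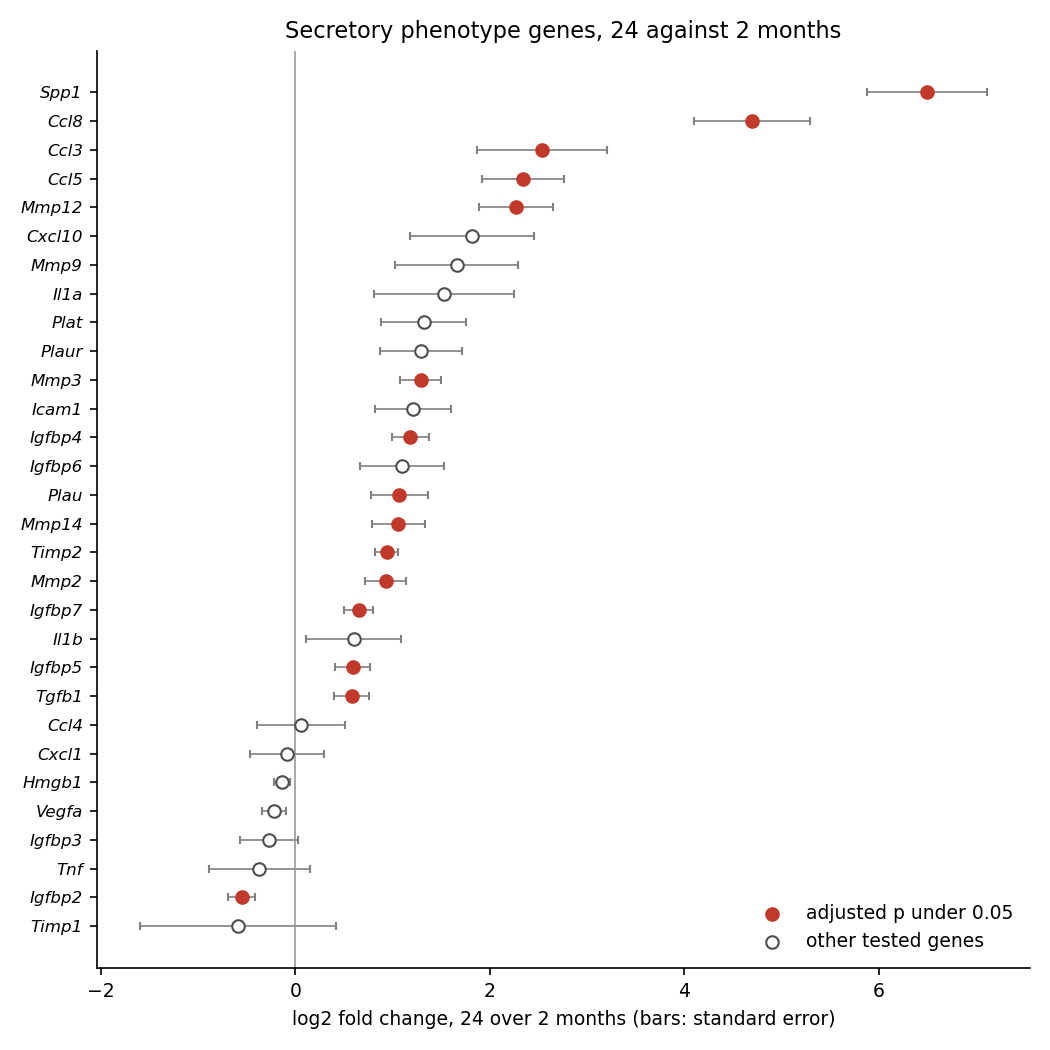
Log2 fold changes of the 30 tested genes of the secretory phenotype for 24 over 2 months (horizontal axis), with bars for the standard error, sorted by size. Filled points passed an adjusted p of 0.05 in edgeR's test, 14 to the right of 0 and Igfbp2 to the left, and Spp1 at 6.50 and Ccl8 at 4.70 stand farthest out.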

How the data were processed

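RNA of 9 lacrimal gland libraries, 3 at each age, was read in pairs of 100 bp on a BGISEQ500RS after extraction with the RNeasy Plus Micro kit, per the labels' protocols. The deposited counts are whole numbers per gene, and the submitters' processing notes name STAR, HTSeq, cutadapt, FastQC and DESeq2 and the GRCm38 build, without versions. The annotation release and strand setting were not given in the sources used here. In the authors' second table, log2 values equal log2(count / size factor + 1) in 100% of entries within 1e-06 and served for this check only.

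Counts were tested with edgeR 4.0.16 (quasi-likelihood F test, TMM, filterByExpr with a minimum count of 10) in R 4.3.3, all 9 libraries in 1 model of the 3 ages, with Benjamini-Hochberg adjustment over the 14944 genes tested and calls under 0.05. The fit left 6 residual degrees of freedom and a common coefficient of variation of 21.2%. The depth leaves genes of a few counts untested or within wide counting intervals. Coordinates, exon lengths and symbols, found for 54079 of 54232 genes, came from GENCODE M21, and promoter sequence from RefSeq. Lists are described by counts and medians, and the named genes are the members, up to 4 called genes of each list with the smallest p, fixed genes of each pathway, and the 3 genes most like each called member. Further called genes of the lists were named after their values were seen, and some genes of the lists are not reported here. The members and lists were chosen with earlier results of these data known. Alternatives were RLE scaling, library totals, other filters, DESeq2 1.42.0, limma 3.58.1 voom, a replicate block, only the libraries compared, no antigen receptor genes, and leaving out libraries. The fits were tested on simulated data. Figures were drawn with Python 3.11.15 and matplotlib 3.10.9.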

Additional observations from a re-analysis of the deposited data

How the results depend on the processing

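Of 632 recomputed values of single members, 589 kept their side of the threshold and, where they had one, their direction. Most were of members that were not called in the main fit. Cdkn1a, the tested member that was called, lost its call in 7 of 20 alternatives for 24 against 2 months and in 7 of 20 for 24 against 12 months. Over the 3 ages together it lost it in 3. Of 79 recomputed counts of calls over all genes, 52 stayed within 1.5 times and 27 did not. The calls for 12 against 2, 24 against 2 and 24 against 12 months numbered 1185, 2597 and 656, and 2534 over the 3 ages. With no count filter they were 2026 for 12 against 2 and 1486 for 24 against 12 months, and with DESeq2 1821 and 1235. Without the 3 libraries with salivary transcripts they were 127, 626, 170 and 471, and for 24 against 2 months 1 gene of the G1 list and 0 of the RB, Polycomb, lamina and stress response lists were called. Without the 2 libraries with muscle transcripts they were 746 for 12 against 2 and 132 for 24 against 12 months. With single libraries left out they ranged from 435 to 1285, 1160 to 2623, 312 to 700 and 1396 to 2532, and p of the Cdkn2a slope from 0.0125 to 0.0518. Without the 3 libraries that p was 0.0667. With no filter, an alternative chosen after seeing the data, Cdkn2a for 24 against 2 months had adjusted p = 0.000762 with DESeq2 and 0.00969 with limma voom.

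Library totals alone moved the median gene by 0.31 for both comparisons with 2 months, which split the calls 1614 higher and 80 lower at 12 months and 2626 and 191 at 24 months, against 808 and 377 and 1467 and 1130 with TMM. For 24 against 12 months they gave 340 calls. On this scale Cdk6 at 24 months was still called lower than at 2 months (adjusted p = 0.00266), and Atf4, Phgdh, Banf1, Kdm6b and Igfbp2 kept a negative log2 fold change but not the call. Relative to the median gene the changes of the members were little altered, but Trp53 (0.19), Rb1 (0.23), Lmnb1 (0.09) and Gdf15 (0.24) turned positive for 24 against 2 months, and Cdkn1a lost its call for 24 against 12 months (adjusted p = 0.0616).

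Changes close to 0 turned sign elsewhere too, none of them called. With single libraries left out, log2 fold changes for 24 against 2 months ranged from -0.16 to 0.16 for Rb1, -0.34 to 0.09 for Lmnb1, -0.1 to 0.13 for Glb1, -0.39 to 0.15 for Gdf15 and -0.05 to 0.47 for Cdkn2c. For 12 against 2 months they ranged from -0.04 to 0.4 for Lmnb1 and -0.02 to 0.21 for Glb1, and for 24 against 12 months from -0.09 to 0.28 for Cdkn2b. Rb1 was 0.03 for 24 against 2 months with limma voom. Without the 3 libraries with salivary transcripts Lmnb1 was -0.19 for 12 against 2 months, and Glb1 and Gdf15 were -0.03 and 0.12 for 24 against 2 months.

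No label says whether replicate numbers pair the libraries. After removal of the age means, the 9 correlations of same-numbered libraries ran from -0.18 to 0.05. Those of differently numbered libraries ran from -0.22 to 0.25. With 3 libraries at each age these values are tied to each other and cannot exclude a pairing. With the number as a block the calls were 701, 1886, 409 and 1640, and Cdkn1a for 24 against 2 months had adjusted p = 0.0521.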
